A study of Mus musculus with 38 samples.

Results

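Gene expression in wild-type oligodendrocyte precursor cells (OPCs) was compared between the middle of the light phase (zeitgeber time, ZT, 6) and its end (ZT12). The comparison used the 11 libraries whose titles gave the WT genotype and one of these times, 5 at ZT6 and 6 at ZT12, of 38 libraries in the series, and all 54532 genes of the count table, of which 22798 had enough reads to be tested. OPCs are the dividing glial cells that mature into the myelin-forming oligodendrocytes of the brain and spinal cord. The series isolated them from mouse forebrain at postnatal days 6 to 7 under a light cycle with 12 h of light, at ZT0 when the lights come on, at ZT6, at ZT12 when they go off and at ZT18, to ask what the clock protein BMAL1 does in these cells. Cells were panned over plates that withdraw microglia and endothelial cells, and then captured by an antibody to PDGFRA, the growth factor receptor on the OPC surface. Each library held RNA of 2 pooled mice, which the labels describe as of both sexes.

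All mice of the comparison, and all others in the series, carried floxed Bmal1 alleles (Bmal1fl/fl). The WT group was NG2::Cre-;Bmal1fl/fl, so these are floxed mice without the Cre transgene and not unmodified animals. The group called KO, used here only to set its own change from ZT6 (7 libraries) to ZT12 (4 libraries) beside that of WT, was NG2::Cre+;Bmal1fl/fl. In it a Cre driven by the NG2 (Cspg4) promoter, which is active in OPCs and also in pericytes, removes the part of Bmal1 that encodes the DNA-binding domain, and the submitters call the result a hypomorph.

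The circadian clock is a feedback loop of transcription in nearly every cell. CLOCK and BMAL1 bind E-box sequences and switch on the Per, Cry, Nr1d and Ciart genes, whose proteins then repress CLOCK and BMAL1 or the Bmal1 gene itself, so that the transcripts of these repressors rise and fall over the day. Other systems follow the time of day as well or respond within minutes to handling: heat shock factors drive chaperone genes in step with temperature and protein damage, the unfolded protein response raises chaperones of the endoplasmic reticulum (ER), and NF-kB and immediate early factors answer cytokines, growth factors and mechanical stress.

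The ZT12 libraries were not of one kind. Ribosomal RNA genes took 0.505% to 0.664% of counts at ZT6 and 0.719% to 1.02% in ZT12 replicates 1 to 3. They took only 0.0856% to 0.0909% in ZT12 replicates 4 to 6, which are among the libraries called low-rRNA below. KO ZT6 replicate 7 (0.0848%) and all 4 KO libraries at ZT18 (0.0946% to 0.263%) were low-rRNA as well. Fits without the low-rRNA libraries left these out too, and the low-rRNA term covered them. Xist and the Y-linked genes, in contrast to the labels, showed RNA of females only in ZT12 replicates 1 to 4 and in ZT6 replicate 2. No ZT12 library therefore had both the usual ribosomal RNA share and RNA of both sexes, and what either property contributes cannot be told apart fully from time. Totals ran from 21446693 to 38135044 counts per library, and values below are CPM, counts scaled to the depth and composition of each library, unless stated otherwise. The cells carried the markers of their label: all 20 OPC markers listed were read in both groups, with a summed level of 18100 to 24200 CPM at ZT6 and 20300 to 24800 CPM at ZT12. Markers of microglia and macrophages summed to 10900 to 18100 CPM at ZT6 and 7890 to 14200 CPM at ZT12, and none of their 20 genes was at 0. In bulk RNA, fewer cells of a type and less RNA per cell cannot be told apart.

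The sequences before the start sites of the genes that fell show which of them carry the binding motifs of the factors named above. Sequences are those of RefSeq on GRCm38.p6, and the motifs were searched on both strands in the 250 bases before each start. The first pair are the clock repressors Ciart (chr3:95882259-95882478, minus strand) and Per1 (chr11:69098699-69098918, plus strand, 1 of 2 listed starts), printed 5′ to 3′ from base 250 to base 31 before the start, with every E-box (CACGTG) in capitals.
Ciart: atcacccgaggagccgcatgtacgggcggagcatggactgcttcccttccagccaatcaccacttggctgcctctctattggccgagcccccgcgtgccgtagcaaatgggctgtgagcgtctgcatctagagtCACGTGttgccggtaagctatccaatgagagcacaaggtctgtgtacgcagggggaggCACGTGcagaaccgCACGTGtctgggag
Per1: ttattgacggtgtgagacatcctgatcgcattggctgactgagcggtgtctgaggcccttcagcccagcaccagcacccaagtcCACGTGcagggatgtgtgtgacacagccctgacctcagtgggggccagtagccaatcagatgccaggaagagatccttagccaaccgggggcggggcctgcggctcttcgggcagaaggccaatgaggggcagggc
Ciart held 3 E-boxes, starting 116, 58 and 44 bases before the start, and Per1 held 1, at 166 bases. Shorter windows show the E-box of 2 further clock repressors, Cry1 (chr10:85185104-85185119, minus strand) and Bhlhe41 (chr6:145865563-145865578, minus strand), starting 60 and 153 bases before their starts.
Cry1: gtggtCACGTGgggtg
Bhlhe41: ttccgCACGTGagctg
For the stress genes, the windows show the kB motif (GGG and TTCC with 3 bases between them, in capitals) of the NF-kB subunit genes Nfkb2 (chr19:46304694-46304713 and chr19:46304721-46304736, plus strand, 1 of 3 listed starts) and Rel (chr11:23771046-23771065, minus strand), and the ER stress element (CCAAT and CCACG with 9 bases between them, in capitals) of Hspa5 (chr2:34772020-34772048, plus strand), the gene of the main ER chaperone.
Nfkb2, distal match: tcacgGGAATTCCCCccctc
Nfkb2, proximal match: cgaaaGGGGCTTTCCc
Rel: cagcgGGAAATCCCCccccc
Hspa5: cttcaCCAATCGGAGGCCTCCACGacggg
Across 32851 listed promoters of the same length, 6.02% held an E-box, 4.65% a kB motif and 0.113% an ER stress element. The list counts below are by gene, with a match at any listed start counted. By gene the shares of 27025 were 6.86%, 5.31% and 0.13%. They were 0.514% for the heat shock element, 0.977% for the D-box and 1.77% for the cyclic AMP response element. Of the 8 clock genes that fell, all were matched to a promoter and 4 held an E-box (Per1, Cry1, Ciart and Bhlhe41), against 1 of the 11 matched clock genes that did not pass (Tef). The kB motif stood in 2 of 4 matched NF-kB list genes that fell and in 5 of 11 that did not pass. The heat shock element (GAA, TTC and GAA with 2 bases between each, in 0.466% of promoters) stood in none of the 7 matched chaperone genes that fell and in 2 of 10 others. The D-box (TTATGTAA) and the cyclic AMP response element (TGACGTCA), in 0.819% and 1.55% of promoters, stood in none of the 8 clock genes that fell. They stood in 2 (Per3, Timeless) and 1 (Hlf) of the 11 others. In the other lists the cyclic AMP response element stood in Maff and Ppp1r15a, which fell, and in Btg2 and Nfkbid, which did not pass. An E-box stood in 2 of 4 immediate early genes that fell (Klf6, Maff) and in 2 of 15 others. The ER stress element stood in 1 of 5 unfolded protein response genes that fell (Hspa5) and in 1 of 13 others (Creld2). These are counts of letters in 1 short window, given with no test.

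From ZT6 to ZT12, 489 genes rose and 569 fell, which is 2.14% and 2.5% of the 22798 genes tested and together 4.64% (quasi-likelihood test of edgeR, Benjamini-Hochberg adjusted p under 0.05 over all genes tested). The median log2 change of all genes was -0.0028. All 6 ZT12 libraries lay above all 5 ZT6 libraries for 507 genes (2.22%) and below them for 745 (3.27%). Genes that fell included 9 heat shock chaperones, 4 NF-kB subunit genes and 8 clock genes, and genes that rose included Id3 and Id4, Vegfa and markers of neurons, astrocytes and red blood cells. With library size alone as the scaling, 800 genes rose and 450 fell, so the balance of the directions depends on the scaling. Without the low-rRNA libraries, 154 genes rose (0.671%) and 321 fell (1.4%), of which 138 and 260 were among those of the full comparison. Without the single-sex libraries, which leaves ZT12 replicates 5 and 6, 91 rose (0.384%) and 55 fell (0.232%), with 69 and 32 shared. ZT12 replicates 5 and 6 are both low-rRNA, while replicates 1 to 3, left in the fit without the low-rRNA libraries, are all female only. Neither fit, here or in the lists below, can therefore separate sex from the ribosomal RNA share. Leaving out single libraries lowered the count of genes that rose from 489 to 220, 167, 293 and 325 without ZT6 replicates 1, 2, 3 and 4, and to 304 and 202 without ZT12 replicates 3 and 5. The count of genes that fell became 247 and 320 without ZT6 replicates 2 and 3, and 371 and 357 without ZT12 replicates 3 and 5.

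**Figure D1:**
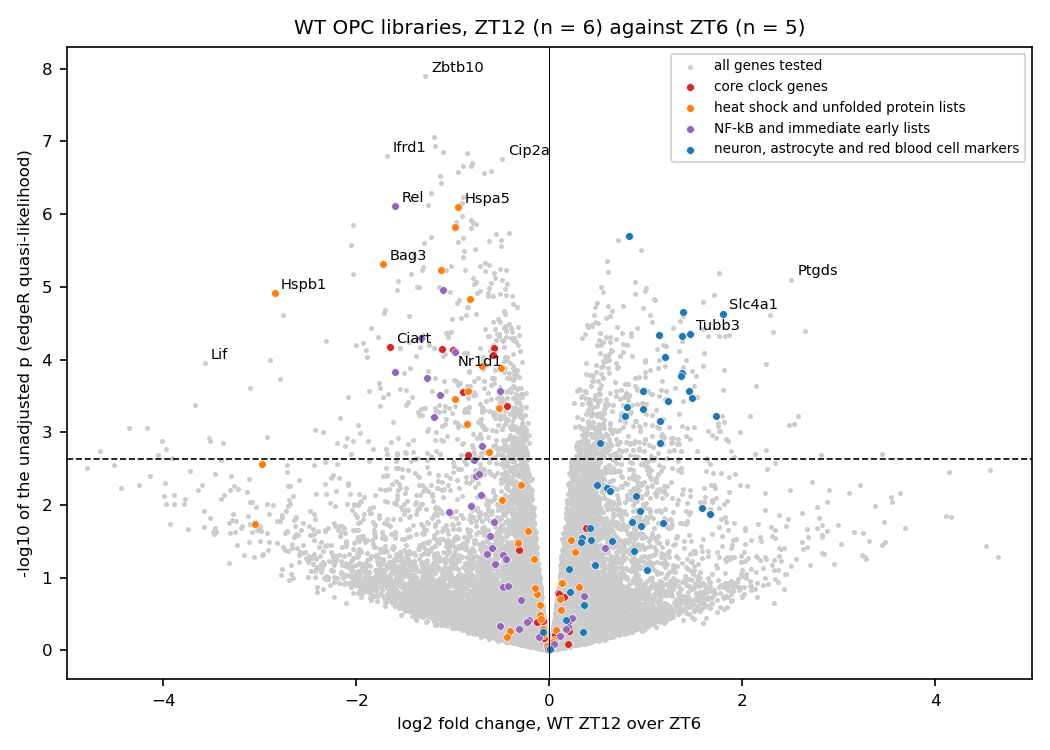
Each point is 1 of the genes tested, with the log2 fold change of ZT12 over ZT6 in WT cells on the x axis and -log10 of the unadjusted edgeR p on the y axis; the dashed line marks the largest p called at an adjusted p under 0.05, and 11 genes lie outside the x range. Clock, heat shock and NF-kB list genes past the line lie on the left, and neuron, astrocyte and red blood cell markers past it lie on the right.

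Of the 24 core clock genes tested, 8 fell and none rose, against 2.5% of all genes that fell, and the median log2 change of the 24 was -0.0605. The 8 were the repressors Ciart, Per1, Cry1 and Bhlhe41, the REV-ERB receptors Nr1d1 and Nr1d2, the D-box repressor Nfil3, and Clock. Ciart (chr3:95878503-95882251), whose protein blocks CLOCK and BMAL1, stood at 71.4, 66.4, 59.9, 56.4 and 67.7 CPM in ZT6 replicates 1 to 5, and at 12.5 to 39.1 CPM (median 15.8) at ZT12. The groups were well apart, with ZT12 replicate 4 the highest of its group. The log2 fold change of Ciart was -1.65 (SE 0.368), a 3.14-fold lower level (edgeR adjusted p 0.00705). Per1 (chr11:69095217-69109960), a repressor that is also switched on by light and glucocorticoids, had 254, 352, 256, 221 and 176 CPM at ZT6 and 92.6 to 161 CPM (median 110) at ZT12. Here too every ZT12 library was below every ZT6 library, by little between ZT12 replicate 4 and ZT6 replicate 5. The change of Per1 was -1.12 (SE 0.25, edgeR adjusted p 0.00717).

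The REV-ERB genes encode nuclear receptors that repress the Bmal1 gene. Nr1d1 went from 62.5, 53.5, 53.6, 50 and 44.5 CPM at ZT6 to 22.6 to 35.1 CPM (median 24.7) at ZT12, a log2 change of -0.99 (SE 0.223, edgeR adjusted p 0.00728). Nr1d2 went from 93.7, 105, 91.4, 85.4 and 74.5 CPM to 55.5 to 63.7 CPM (median 59.8), a change of -0.58 (SE 0.133, edgeR adjusted p 0.0079). Neither gene's groups overlapped, and the ZT12 values of Nr1d2 lay close together. Cry1, the cryptochrome partner of the period proteins, went from 35.2, 36, 33.4, 39.1 and 35.9 CPM to 21.8 to 26.3 CPM (median 24.3), a change of -0.57 (SE 0.128, edgeR adjusted p 0.00705). Bhlhe41 (DEC2), a repressor that competes for E-boxes, went from 80.9, 99.8, 106, 89.3 and 109 CPM to 38.3 to 74.7 CPM (median 52.4), a change of -0.89 (SE 0.222, edgeR adjusted p 0.0158). Both genes also separated the groups fully.

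Clock, the partner of BMAL1, fell less, from 104, 99.0, 95.3, 93.8 and 90.6 CPM to 63.6 to 85.1 CPM (median 69.1), with a log2 change of -0.44 (SE 0.113, edgeR adjusted p 0.0199). Its groups did not overlap, but the call was lost without ZT6 replicate 1 or 2, without ZT12 replicate 3 and with library size alone as the scaling. Nfil3, which represses D-box genes, went from 35.9, 51.6, 48.1, 44.6 and 59.4 CPM to 18.8 to 38.4 CPM (median 25.7), a change of -0.85 (SE 0.256, edgeR adjusted p 0.0471). It was the one member of the 8 whose groups overlapped, and its call was lost on leaving out any 1 library of the 11 other than ZT12 replicate 4.

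The other 16 clock genes did not pass. Arntl, the gene of BMAL1 itself, had 20.7, 21.2, 19.3, 20.2 and 21.4 CPM at ZT6 and 19.5 to 26.2 CPM (median 22.9) at ZT12, a log2 change of 0.15 (SE 0.112, edgeR adjusted p 0.521). Per2 had 26.8 to 49.9 CPM at ZT6 and 28.1 to 36.4 CPM at ZT12, a change of -0.33 (SE 0.147, edgeR adjusted p 0.219). Per3 had 42.3 to 58.8 CPM and 32.7 to 51.6 CPM, a change of -0.31 (SE 0.148, edgeR adjusted p 0.251). Values of all 3 genes overlapped between the times. Dbp, the D-box activator that is a classic CLOCK and BMAL1 target in other tissues, had 17.6 to 21.9 CPM and 16.8 to 19.3 CPM, a change of -0.12 (SE 0.149, edgeR adjusted p 0.732). The remaining 12 included Npas2, Cry2, Rora, Rorb, Tef, Hlf, Bhlhe40, Csnk1d, Csnk1e and Timeless, and the largest of their changes was that of Rorb (0.38, edgeR adjusted p 0.171). Without the low-rRNA libraries 4 of the 24 clock genes were called, Ciart (-1.74, edgeR adjusted p 0.0119), Per1 (-1.19, 0.0282), Nr1d1 (-1.07, 0.0241) and Cry1 (-0.61, 0.0337), all lower. Without the single-sex libraries 2 were called, Ciart (-2.29, edgeR adjusted p 0.0421) and Nr1d2 (-0.60, 0.0477). With all libraries kept and a term for the low-rRNA share added to the fit, none of the 8 clock genes was called: Ciart changed by -1.32 (edgeR adjusted p 0.178), Per1 by -0.93 (0.121), Nr1d1 by -0.84 (0.112) and Cry1 by -0.49 (0.0878), and the adjusted p of the other 4 was 0.0959 to 0.205.

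**Figure D2:**
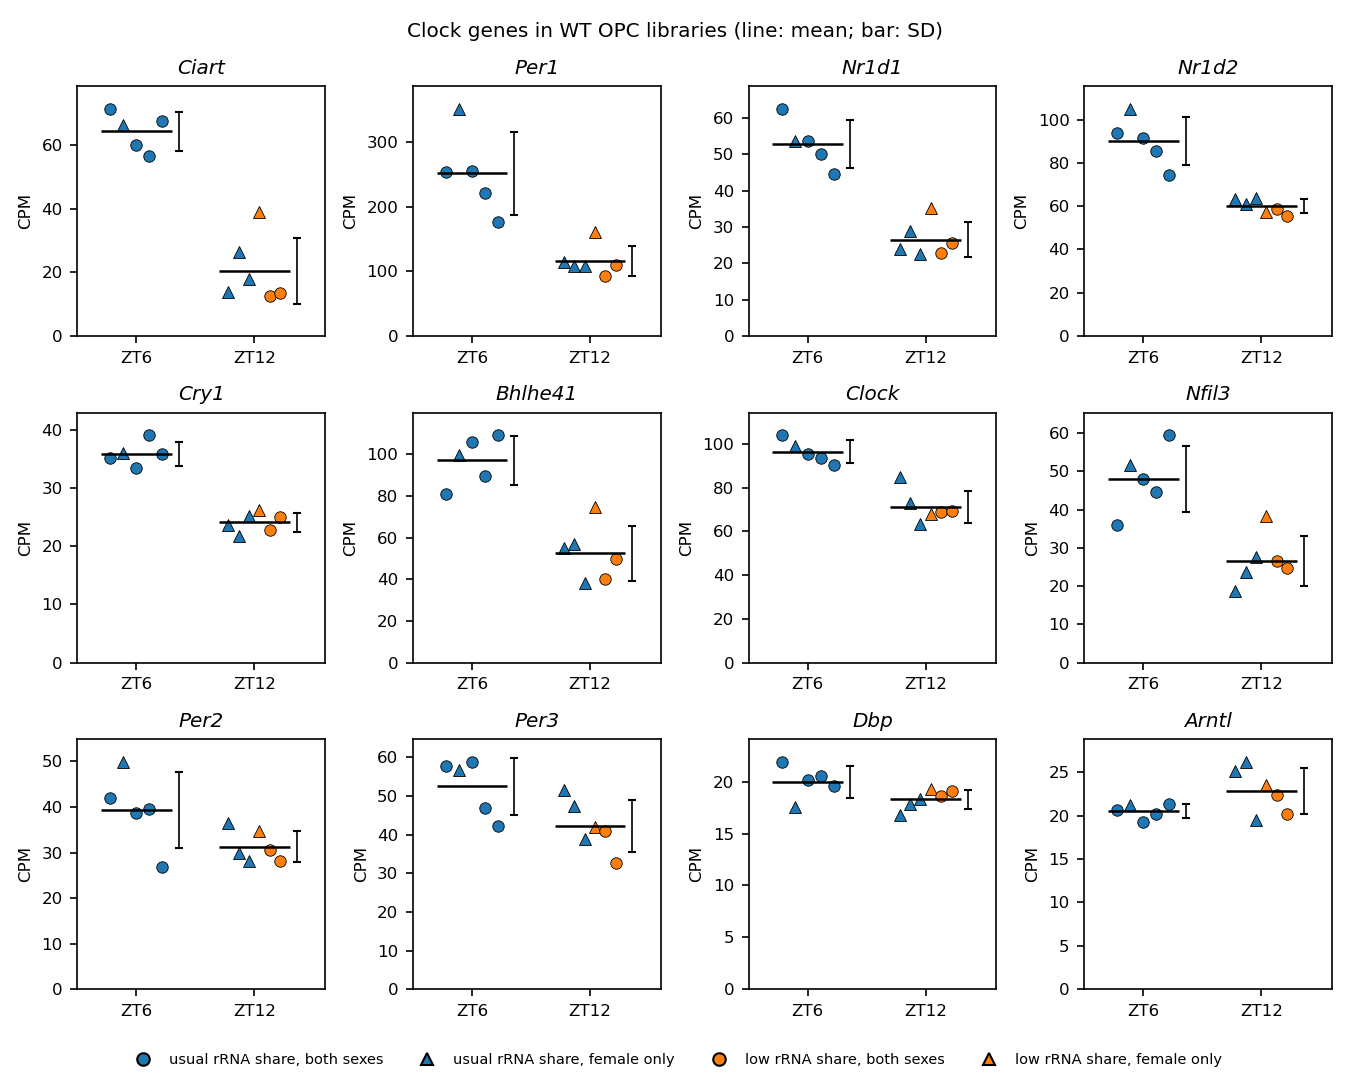
CPM (y axis, from 0) of 12 clock genes in each WT library at ZT6 (5 libraries) and ZT12 (6), with the mean as a line and the SD as a bar; colour marks the ribosomal RNA share and shape the sex of the RNA. The first 7 panels, Ciart to Clock, show no overlap between the times, Nfil3 overlaps, and Per2, Per3, Dbp and Arntl overlap and were not called.

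The 10 named genes with the smallest p-values all fell. In each of them every ZT12 library lay below every ZT6 library, against 3.27% of all genes. They were picked by p in this same comparison, so the separation is not further support. Zbtb10 (chr3:9250602-9285333), a zinc finger repressor, had 124, 150, 124, 107 and 108 CPM at ZT6 and 37.0 to 67.7 CPM (median 49.1) at ZT12, a log2 change of -1.28 (SE 0.177, edgeR adjusted p 0.000285). Within ZT12 the low-rRNA libraries had the higher values, 58.1 to 67.7 CPM against 37.0 to 40.1 CPM, and without them the change was -1.67. Ifrd1, a co-regulator of transcription induced by growth factors and stress, went from 280 ± 57.8 CPM (SD, n = 5) to 87.2 ± 27.4 (n = 6), a change of -1.68 (SE 0.262). The haem-sensing repressor Bach1 went from 283 ± 39.2 CPM (SD, n = 5) to 124 ± 24.5 (n = 6), and Fbxo30, a substrate receptor of a ubiquitin ligase, from 51.3 ± 6.34 to 22.4 ± 3.49 CPM. These 2 changes were -1.19 and -1.2.

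Regulators of growth stood among the same 10 genes. Rragc, the RagC subunit that recruits mTORC1 to the lysosome when amino acids are present, had 188, 187, 181, 175 and 154 CPM at ZT6 and 82.1 to 115 CPM (median 95.1) at ZT12, a change of -0.89 (SE 0.141). Fnip1, a partner of folliculin that acts on the same pathway, went from 126 ± 22.2 CPM (SD, n = 5) to 71.9 ± 4.28 (n = 6). Mxd1, the MAX partner that opposes MYC, went from 50.3 ± 5.15 to 27.8 ± 3.94 CPM, and Nmd3, the export adaptor of the large ribosomal subunit, from 65.0 ± 6.59 to 37.3 ± 3.34 CPM. The log2 changes of these 3 genes were -0.81, -0.86 and -0.80. Cip2a, an inhibitor of the phosphatase PP2A, fell by little but evenly, from 59.2, 59.7, 55.3, 53.5 and 61.4 CPM to 35.4 to 46.4 CPM (median 40.8), a change of -0.49 (SE 0.0767). Zfp655, a zinc finger protein, completed the 10 with a change of -1.11 (SE 0.171). The adjusted p of the 9 genes after Zbtb10 was 0.000484 (edgeR). All 10 were also called without the low-rRNA libraries, and 7 of them, all but Zbtb10, Fnip1 and Nmd3, without the single-sex libraries.

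Of 20 inducible heat shock chaperones tested, 9 fell and none rose, against 2.5% of all genes that fell, with a median log2 change of -0.511. Every ZT12 library lay below every ZT6 library for 13 of them, against 3.27% of all genes. Hspb1 (chr5:135887919-135889563), the small heat shock protein HSP27, had 30.4, 45.3, 45.7, 63.8 and 126 CPM at ZT6 and 5.09 to 16.7 CPM (median 7.63) at ZT12. Its groups were far apart, and the log2 change was -2.84 (SE 0.563), a 7.17-fold lower level (edgeR adjusted p 0.00307). Bag3, the co-chaperone that guides damaged proteins to autophagy, had 67.2, 68.6, 62.8, 68.7 and 127 CPM and then 11.7 to 38.3 CPM (median 24.1), a change of -1.72 (SE 0.322, edgeR adjusted p 0.00225). ZT6 replicate 5 was the highest library for both genes. Hsph1, the HSP110 exchange factor of HSP70, had 193, 221, 183, 198 and 283 CPM and then 85.6 to 135 CPM (median 107), a change of -0.98 (SE 0.171, edgeR adjusted p 0.00121). The other chaperone genes that fell were Hsp90aa1, Hspa8, Hspa5, Dnajb1, Dnaja1 and Dnajb4. With the low-rRNA libraries left out 6 of the 20 fell, with a median of -0.537, and without the single-sex libraries 1 fell (Hsph1, -1.13, edgeR adjusted p 0.0261) at a median of -0.566. Hspb1 was not called with a low-rRNA term (-2.60, edgeR adjusted p 0.0862).

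Of 20 genes of the unfolded protein and integrated stress response, 5 fell and none rose (median log2 change -0.0987), against 2.5% of all genes that fell. The 5 were Hspa5, which stands in the chaperone list as well, Herpud1, Dnajb9, Ddit3 and Ppp1r15a. Hspa5 (chr2:34771970-34777547), the ER chaperone BiP, had 1670, 2070, 1850, 2010 and 2130 CPM at ZT6 and 784 to 1260 CPM (median 996) at ZT12. Every ZT12 library was lower, those with usual ribosomal RNA at 784 to 891 CPM and the low-rRNA ones at 1100 to 1260 CPM. The change of Hspa5 was -0.94 (SE 0.159, edgeR adjusted p 0.000879). Herpud1, which helps to withdraw misfolded proteins from the ER, had 259, 396, 320, 240 and 251 CPM and then 94.0 to 205 CPM (median 123), a change of -1.12 (SE 0.213, edgeR adjusted p 0.00228). Dnajb9, an ER co-chaperone of BiP, went from 109 ± 5.39 CPM (SD, n = 5) to 67.4 ± 3.8 (n = 6), a change of -0.70 (SE 0.163, edgeR adjusted p 0.00982). Leaving out the low-rRNA libraries, 7 of the 20 fell at a median of -0.29, and leaving out the single-sex libraries, none fell and the median was 0.0663. Of the 2 cold-inducible RNA-binding proteins, Cirbp rose, from 73.4, 74.1, 79.0, 85.2 and 76.2 CPM to 80.1 to 104 CPM (median 97.3), a change of 0.28 (SE 0.0821, edgeR adjusted p 0.0387). Its groups overlapped, and the call was lost without the low-rRNA libraries (0.20, edgeR adjusted p 0.445) and without any of ZT6 replicates 1, 2, 3 and 5 or ZT12 replicates 3, 5 and 6.

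Genes of NF-kB feedback, cytokines and chemokines had a median log2 change of -0.719, with 6 of 20 lower and none higher. Of all genes 2.5% were lower. The 6 were the NF-kB subunits Rel, Relb, Nfkb2 and Nfkb1, the adhesion molecule Icam1 and the prostaglandin synthase Ptgs2. Rel (chr11:23736847-23770970), the c-Rel subunit, had 340, 460, 324, 274 and 236 CPM at ZT6 and 67.3 to 160 CPM (median 102) at ZT12, a log2 change of -1.60 (SE 0.27, edgeR adjusted p 0.000879). The groups were apart, and within ZT12 the usual libraries held 67.3 to 76.7 CPM and the low-rRNA ones 127 to 160 CPM. Relb had 38.8, 60.7, 44.3, 42.9 and 27.4 CPM and then 15.1 to 24.2 CPM (median 20.5), a change of -1.11 (SE 0.218, edgeR adjusted p 0.00296). Nfkb2 (chr19:46304737-46312090), whose precursor p100 holds RelB in the cytoplasm, had 72.8, 116, 70.6, 55.0 and 38.2 CPM and then 26.0 to 48.4 CPM (median 33.3), a change of -0.98 (SE 0.221, edgeR adjusted p 0.00752). The Nfkb2 groups overlapped through ZT6 replicate 5, and the call was lost without ZT6 replicate 2. Without the low-rRNA libraries 10 of the 20 fell (median -1.22), and without the single-sex libraries none fell and 1 rose, the chemokine gene Ccl2 (1.34, edgeR adjusted p 0.00784; list median -0.382). Many of these genes are also made by microglia, whose 20 markers had a median change of -0.135 with none called; the part of microglia in the change was not tested.

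Immediate early genes gave a mixed picture. Of 22, 4 fell (Atf3, Maff, Fosl2 and Klf6) and none rose, against 2.5% of all genes that fell. The median log2 change of the 22 was -0.264. Atf3, a stress-induced bZIP repressor, had 1410, 1710, 1750, 1380 and 1290 CPM at ZT6 and 324 to 1020 CPM (median 676) at ZT12, a change of -1.13 (SE 0.283, edgeR adjusted p 0.0164). Maff, a small Maf factor, had 155, 201, 159, 138 and 148 CPM and then 31.7 to 109 CPM (median 57.6), a change of -1.33 (SE 0.29, edgeR adjusted p 0.00604). Both genes separated the times, yet ZT12 was split: Atf3 stood at 324 to 536 CPM in the usual libraries and at 815 to 1020 CPM in the low-rRNA ones, and Maff at 31.7 to 43.2 CPM and 72.0 to 109 CPM. Fosl2, an AP-1 subunit, went from 48.1 ± 7.24 CPM (SD, n = 5) to 21.1 ± 8.02 (n = 6), a change of -1.19 (SE 0.319, edgeR adjusted p 0.0239). The call of Atf3 was lost without ZT6 replicate 2, and that of Fosl2 without ZT6 replicate 2 or 3 or ZT12 replicate 1, 5 or 6. Fosl2 was also lost without the low-rRNA libraries and with a low-rRNA term (-1.08, edgeR adjusted p 0.176). The mean log2 CPM of the 22 genes was 8.02 to 8.40 at ZT6, 7.08 to 7.63 in the usual ZT12 libraries and 8.05 to 8.23 in the low-rRNA ones, so that only the usual libraries stood apart from ZT6. With the low-rRNA libraries out, 5 fell with a median of -0.659, and without the single-sex libraries none fell with a median of 0.164.

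Feedback genes of the MAP kinase pathway moved in both directions. Of 14 tested, Dusp5 and Errfi1 fell and Spry2 rose, and the median was -0.0512. Among all genes 2.5% fell and 2.14% rose. Dusp5, a nuclear phosphatase of ERK, went from 39.4, 61.5, 37.3, 56.0 and 48.6 CPM to 12.6 to 30.9 CPM (median 21.5), a change of -1.18 (SE 0.307, edgeR adjusted p 0.0205). Errfi1, an inhibitor of the EGF receptor that is also listed among the glucocorticoid-responsive genes, went from 32.8, 42.7, 42.9, 43.0 and 44.2 CPM to 17.2 to 27.6 CPM (median 22.8), a change of -0.83 (SE 0.195, edgeR adjusted p 0.0109). Both had every ZT12 library below every ZT6 library. Spry2, a Sprouty inhibitor of receptor tyrosine kinase signalling, went from 54.3, 42.3, 50, 62.5 and 50.7 CPM to 56.8 to 103 CPM (median 81.3), a change of 0.65 (SE 0.171, edgeR adjusted p 0.0218) with overlap of the groups. The call of Dusp5 was lost without the low-rRNA libraries (-1.34, edgeR adjusted p 0.0795), and so was that of Spry2 (0.45, 0.312). Dusp5 was also lost without ZT6 replicate 2 or ZT12 replicate 5, and Spry2 without ZT6 replicate 2 or 3 or ZT12 replicate 5 or 6. Leaving out the single-sex libraries, Spry2 rose and no gene of the list fell. Of 15 glucocorticoid-responsive genes 4 fell and none rose (median -0.189): Per1, Errfi1, the cell cycle inhibitor Cdkn1a, and the metal-binding Mt1, which went from 98.9, 158, 124, 118 and 91.5 CPM to 60.7 to 84.9 CPM (median 73.2), a change of -0.70 (SE 0.192, edgeR adjusted p 0.029). The call of Mt1 was lost without ZT6 replicate 2 or 3 or ZT12 replicate 3 or 5, and without the low-rRNA libraries (-0.76, edgeR adjusted p 0.11); leaving out the single-sex libraries, none of the 15 was called.

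**Figure D3:**
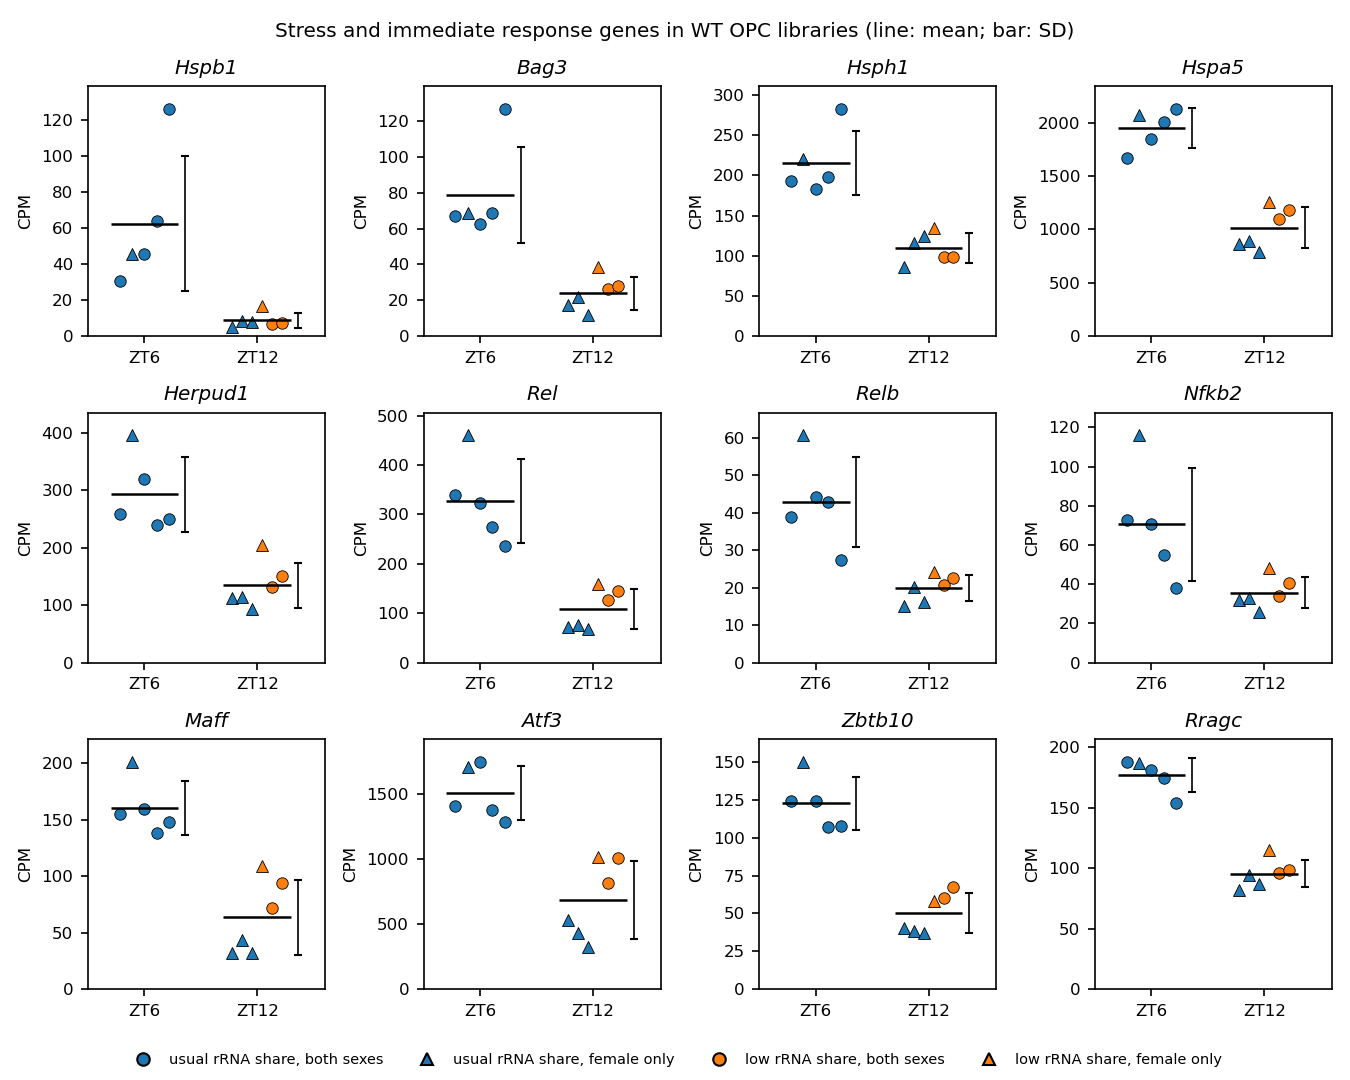
CPM (y axis, from 0) of 12 chaperone, ER stress, NF-kB, immediate early and other genes in each WT library at ZT6 (5 libraries) and ZT12 (6), with the mean as a line and the SD as a bar; colour marks the ribosomal RNA share and shape the sex of the RNA. All ZT12 points lie below all ZT6 points except for Nfkb2. In every panel but those of Hspb1 and Hsph1 the 3 low-rRNA libraries lie above the 3 usual ZT12 libraries. The gap is small for Relb, Nfkb2 and Rragc.

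The 10 largest falls among genes with a mean log2 CPM above 1 were led by Lif (chr11:4257557-4272514), a cytokine of the interleukin 6 family that acts on oligodendrocyte survival. It had 5.58, 10.4, 8.14, 11.7 and 13.3 CPM at ZT6 and 0.269 to 2.27 CPM (median 0.545) at ZT12, a log2 change of -3.57 (SE 0.827), 11.9-fold lower (edgeR adjusted p 0.00933). The call was lost with a low-rRNA term (-3.52, edgeR adjusted p 0.131) and without the single-sex libraries (-4.14, 0.12). Osgin1, a target of the antioxidant factor NRF2, went from 14.8, 28.1, 15.9, 21.4 and 12.2 CPM to 2.73 to 7.25 CPM (median 4.08), a change of -2.06 (SE 0.371, edgeR adjusted p 0.00151). Neither gene's groups overlapped. Osgin1 was not called without the single-sex libraries (-1.67, edgeR adjusted p 0.109). Hspb1 and Bag3, given above, stood in the same set.

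Immune surface and signalling genes filled much of the rest of these 10. Cd274, the immune checkpoint ligand PD-L1, went from 13.1 ± 2.48 CPM (SD, n = 5) to 3.19 ± 1.22 (n = 6), a change of -2.04 (edgeR adjusted p 0.0012). Cxcl10, an interferon-induced chemokine, went from 90.0 ± 39.9 to 24.3 ± 15.8 CPM, a change of -1.89 (edgeR adjusted p 0.00824), with overlap between the times. H2-Q6, a class I histocompatibility gene in a family of near-identical copies whose reads cannot be assigned with certainty, went from 27.8 ± 17.5 to 8.07 ± 3.33 CPM, a change of -1.78 (edgeR adjusted p 0.00601); ZT6 replicate 2 held 58.3 CPM of it, and the call was lost without that library. Rasgef1b, an exchange factor for Ras-like GTPases, went from 180 ± 33 to 54.7 ± 22.9 CPM, a change of -1.71 (edgeR adjusted p 0.00441). Eid3, an inhibitor of the acetyltransferase p300, and Lncpint, a long non-coding RNA induced by p53, changed by -1.85 (edgeR adjusted p 0.00554) and -1.69 (0.0428), and both overlapped between the times. The call of Lncpint was lost in 9 of the 11 fits without 1 library, all but those without ZT6 replicate 5 or ZT12 replicate 2, and also without the low-rRNA libraries (-1.06, edgeR adjusted p 0.306), with a low-rRNA term and with only the 11 libraries fitted. Eid3 was lost without the low-rRNA libraries (-1.48, edgeR adjusted p 0.0673), with the term and without the single-sex libraries (-1.99, 0.124). Cxcl10 and Rasgef1b were lost with the term and without the single-sex libraries, and H2-Q6 without the single-sex libraries, while Cd274 was called in each of these fits.

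The lists of cell cycle genes differed. Of 24 mitosis and G2/M genes, 4 fell (Ccnb1, Cenpe, Kif23 and Wee1) and none rose, against 2.5% of all genes that fell. A negative change was seen in 23, with a median log2 change of -0.238 and a range of -0.51 to 0.0319. Every ZT12 library lay below every ZT6 library for 10 of the 24, against 3.27% of all genes. Cenpe, a kinetochore motor, went from 77.1, 73.7, 73.3, 68.5 and 81.5 CPM to 48.4 to 61.5 CPM (median 55.1), a change of -0.43 (SE 0.0844, edgeR adjusted p 0.00276). Kif23, a motor of the dividing spindle, went from 57.9, 61.1, 56.3, 51.8 and 59.3 CPM to 36.1 to 47.8 CPM (median 43.3), a change of -0.43 (SE 0.0988, edgeR adjusted p 0.00816). Wee1, the kinase that holds back entry into mitosis and a known clock target in liver, went from 34.5, 35.1, 37.3, 39.4 and 46.6 CPM to 20.8 to 33.9 CPM (median 27.3), a change of -0.51 (SE 0.136, edgeR adjusted p 0.0231). The groups of all 3 genes were apart, and the call of Wee1 was lost without ZT6 replicate 5 or ZT12 replicate 1, 2 or 3. Within ZT12, Wee1 stood at 20.8 to 23.3 CPM in the usual libraries and at 31.2 to 33.9 CPM in the low-rRNA ones. The latter lay close to the lowest ZT6 value, 34.5 CPM. Leaving out the low-rRNA libraries, 3 of the 24 fell (median -0.305), and leaving out the single-sex libraries, none did (median -0.187). The summed level of the 24 genes was 1820 to 2210 CPM at ZT6 and 1480 to 1740 CPM at ZT12. Of 24 genes of DNA replication and G1/S, in contrast, none was called in either direction, with a median of 0.049. Their summed levels were 1390 to 1500 CPM at ZT6 and 1290 to 1700 CPM at ZT12. That median covers a split ZT12 group. Mean log2 CPM was 5.06 to 5.19 at ZT6, 5.04 to 5.09 in the usual ZT12 libraries and 5.23 to 5.45 in the low-rRNA ones. The median became -0.0538 once the low-rRNA libraries were removed, and 0.214 once those of a single sex were. No gene of the list was called in either fit.

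Metabolic lists moved little as a whole. Of 24 glycolysis and hypoxia genes, Hk2 fell and Vegfa and Aldoc rose, at a median of 0.0825. Among all genes 2.5% fell and 2.14% rose. Hk2, the inducible hexokinase, went from 174, 199, 180, 164 and 173 CPM to 47.3 to 120 CPM (median 88.9), a change of -1.01 (SE 0.211, edgeR adjusted p 0.00477). Vegfa, the angiogenic factor, went from 83.8, 80.2, 85.3, 79.5 and 65.1 CPM to 106 to 161 CPM (median 112), a change of 0.61 (SE 0.146, edgeR adjusted p 0.0111). The groups of both genes were apart in opposite directions. Aldoc, an aldolase that is also counted among the astrocyte markers, went from 48.7, 54.8, 79.2, 55.1 and 61.6 CPM to 81.2 to 139 CPM (median 99.9), a change of 0.82 (SE 0.146, edgeR adjusted p 0.00143). Without the single-sex libraries, none of the 24 was called. Of 24 nuclear genes of oxidative phosphorylation 21 had a positive change, but 2 rose, the complex I subunits Ndufb3 (12.5 ± 1.32 to 18.1 ± 1.55 CPM, edgeR adjusted p 0.0227) and Ndufa1 (10.2 ± 1.46 to 14.9 ± 1.7 CPM, edgeR adjusted p 0.0279). Neither was called without the low-rRNA libraries (0.44 and 0.40, edgeR adjusted p 0.258 and 0.384), and both were lost without ZT6 replicate 1 or ZT12 replicate 5, Ndufb3 also without ZT6 replicate 5 and Ndufa1 without ZT6 replicate 2 or 3 or ZT12 replicate 6. None was called among 24 cholesterol synthesis genes (median 0.109), 24 cytosolic ribosomal protein genes (-0.0563), 12 mitochondrially encoded mRNAs (-0.187), 14 replication-dependent histone genes (0.116) or 7 nuclear-retained long non-coding RNAs (0.15).

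Lineage genes of the OPC were nearly level, with a median log2 change of 0.0349 over 20 markers. Among all genes 2.14% rose and 2.5% fell. Of 20 OPC markers 1 rose, Sox10, the factor that sets oligodendroglial identity, from 522, 433, 415, 530 and 527 CPM to 533 to 744 CPM (median 628), a log2 change of 0.39 (SE 0.117, edgeR adjusted p 0.047). All ZT12 values were above all ZT6 values, by a small margin, and the call was lost in 8 of the 11 fits without 1 library, all but those without ZT6 replicate 5 or ZT12 replicate 1 or 2, as well as without the low-rRNA libraries (0.26, edgeR adjusted p 0.459). Olig2, its partner in lineage choice, had 485 to 736 CPM and 637 to 943 CPM, a change of 0.41 (SE 0.132, edgeR adjusted p 0.0667), and the membrane protein gene Lhfpl3 had 592 to 834 CPM and 493 to 676 CPM, a change of -0.35 (SE 0.111, edgeR adjusted p 0.0602). The groups of these 2 genes overlapped. Of 21 genes of oligodendrocyte differentiation and myelin 1 fell, Tcf7l2, an effector of Wnt signals in early oligodendrocytes, from 30.3 ± 2.27 CPM (SD, n = 5) to 24.7 ± 1.79 (n = 6), a change of -0.30 (edgeR adjusted p 0.0485). That call was lost in 10 of the 11 fits without 1 library, all but the fit without ZT6 replicate 4, and when the low-rRNA libraries were removed (-0.32, edgeR adjusted p 0.173).

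Id genes encode proteins without a DNA-binding domain that trap the activators of differentiation, and BMP signals induce them. Id2 fell from 305, 413, 391, 295 and 251 CPM to 140 to 256 CPM (median 160), a change of -0.92 (SE 0.192, edgeR adjusted p 0.00462), with slight overlap through ZT12 replicate 4. Id3 (chr4:136143497-136145755) rose from 11.8, 15.5, 19.2, 18.3 and 16.1 CPM to 20 to 49.8 CPM (median 28.8), a change of 0.97 (SE 0.199, edgeR adjusted p 0.00394), with the groups apart. Id4 rose from 10.5, 14, 20.8, 12.5 and 13.7 CPM to 20.4 to 37.9 CPM (median 31.6), a change of 1.08 (SE 0.217, edgeR adjusted p 0.00338). All 3 were called without the low-rRNA libraries, in the same directions, and Id3 and Id4 also without the single-sex libraries. These were the 3 members called of 18 BMP, Id and Notch target genes (median 0.176), against 4.64% of all genes called. Astrocytes and their precursors also make Id3 and Id4, and 10 of 18 astrocyte markers rose in the same comparison; the part of astrocytes in these changes was not tested.

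Markers of cells other than OPCs rose across several lists, whose counts stand beside 2.14% of all genes that rose. Of 18 astrocyte markers 10 rose and none fell, with all 18 changes positive and a median log2 change of 0.797, and their summed level was 1150 to 1940 CPM at ZT6 and 1560 to 2750 CPM at ZT12. Of 20 neuron markers 5 rose (Tubb3, Stmn2, Gad2, Dlx1 and Dlx2) and none fell, at a median of 0.919, with summed levels of 1210 to 1570 CPM and 1500 to 2290 CPM. Of 7 red blood cell genes tested 5 rose, at a median of 1.13, with summed levels of 1330 to 2630 CPM and 2910 to 5530 CPM. Mural cell markers rose for 2 of 12 (Pdgfrb and Vtn, median 0.413), while none was called among 15 endothelial (0.444) and 12 choroid plexus and ependymal markers (0.663); no tested marker of these 7 other cell types, microglia included, was at 0 in all 11 libraries.

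Tubb3 (chr8:123411424-123422015), the neuronal tubulin, had 42.7, 45.6, 69.8, 66.4 and 74.0 CPM at ZT6 and 123 to 230 CPM (median 147) at ZT12, a change of 1.46 (SE 0.315, edgeR adjusted p 0.00598). Gad2, which makes GABA, had 11, 11.1, 14.3, 16.8 and 15.8 CPM and then 24.8 to 42.2 CPM (median 28.0), a change of 1.2 (SE 0.274, edgeR adjusted p 0.00824). Dlx1, a factor of forebrain interneurons and their precursors, had 21.9 to 48.6 CPM at ZT6 (mean 36.1 ± 12.6, SD, n = 5) and 94 ± 25.8 CPM (n = 6) at ZT12, a change of 1.38 (SE 0.327, edgeR adjusted p 0.0111). All 3 genes had every ZT12 library above every ZT6 library, and ZT6 replicates 1 and 2 had the lowest values of each; the call of Dlx1 was lost without ZT6 replicate 2. Aldh1l1, the folate enzyme used to mark astrocytes, had 8.95, 12.9, 19, 8.83 and 11.7 CPM and then 21.2 to 44.6 CPM (median 31.0), a change of 1.37 (SE 0.299, edgeR adjusted p 0.00598), also without overlap.

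Haemoglobin transcripts mark red blood cells and their precursors. Hba-a1 (chr11:32283511-32284465) had 577, 543, 1190, 1050 and 891 CPM at ZT6 and 1430 to 2620 CPM (median 1660) at ZT12, a change of 1.13 (SE 0.246, edgeR adjusted p 0.00598). Hbb-bt had 54.8, 54.6, 125, 86.8 and 75.3 CPM and then 127 to 354 CPM (median 154), a change of 1.39 (SE 0.285, edgeR adjusted p 0.00431). Both have near-identical copies, so reads may be split among them, and both groups were apart. Slc4a1, the band 3 anion exchanger of the red cell membrane, had 1.12 to 2.79 CPM and 2.74 to 14 CPM, a change of 1.80 (SE 0.372, edgeR adjusted p 0.00441). Without the low-rRNA libraries 7 astrocyte, 3 neuron and 5 red blood cell markers rose, with medians of 0.874, 1.19 and 1.39; without the single-sex libraries 1, 1 and 0 rose, with medians of 0.671, 0.452 and 0.779.

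The 10 largest rises were genes of low level, and several were carried by 1 library. Ppp1r1b, the dopamine-regulated phosphatase inhibitor of striatal neurons, had 0.703, 1.11, 0.791, 1.12 and 2.22 CPM at ZT6 and 3.03 to 14.5 CPM (median 3.75) at ZT12, a change of 2.25 (SE 0.521, edgeR adjusted p 0.00945). It was highest in ZT12 replicate 3, and the times did not overlap. Ptgds (chr2:25466709-25470046), the prostaglandin D synthase of meninges and mature oligodendrocytes, had 1.83, 2.90, 4.70, 4.53 and 4.59 CPM and then 6.68 to 49.8 CPM (median 16.8), a change of 2.51 (SE 0.483, edgeR adjusted p 0.00262). Bmp6, a BMP ligand, had 1.77 to 3.40 CPM and then 4.94 to 48.7 CPM (median 6.72), a change of 2.32 (SE 0.5, edgeR adjusted p 0.00597). The gap junction gene Gjb2 and the matrix proteoglycan gene Fmod changed by 2.14 (edgeR adjusted p 0.0146) and 1.91 (0.0484). Ptgds, Bmp6, Gjb2 and Fmod were each highest in ZT12 replicate 5, at 49.8, 48.7, 27.0 and 19.9 CPM, and the calls of Bmp6, Gjb2 and Fmod were lost without that library. Gjb2 was lost without ZT6 replicate 2 as well, and Fmod without any of ZT6 replicates 1 to 4 or ZT12 replicates 1 and 6. Leaving out the low-rRNA libraries ended the same 3 calls (edgeR adjusted p 0.0667 to 0.585), and leaving out the single-sex libraries ended that of Ppp1r1b (1.97, 0.129).

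The others described here were Sst, the neuropeptide somatostatin of a class of interneurons (2.08, edgeR adjusted p 0.0236), Fam163b (1.97, 0.0315), the Ran-binding protein gene Ranbp3l (1.86, 0.00598) and the homeobox gene Six5 (1.82, 0.00598), all with overlapping groups. Sst was lost without ZT6 replicate 1, 2 or 3 or ZT12 replicate 3, and Fam163b without any of ZT6 replicates 1 to 4 or ZT12 replicates 3 and 5. Without the single-sex libraries Sst, Fam163b and Six5 were not called. The mural genes behaved alike: Vtn, vitronectin, had 19.8 to 42.3 CPM at ZT6 and 22.7 to 206 CPM at ZT12, again highest in ZT12 replicate 5 (1.28, edgeR adjusted p 0.0356), and Pdgfrb, the pericyte receptor, had 12.7 to 26.9 CPM and 18.6 to 53.7 CPM (0.92, edgeR adjusted p 0.0421). Both calls were lost without ZT12 replicate 5, without the low-rRNA libraries and without any of ZT6 replicates 1, 2, 4 and 5, that of Pdgfrb also without ZT12 replicate 2 or 3.

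**Figure D4:**
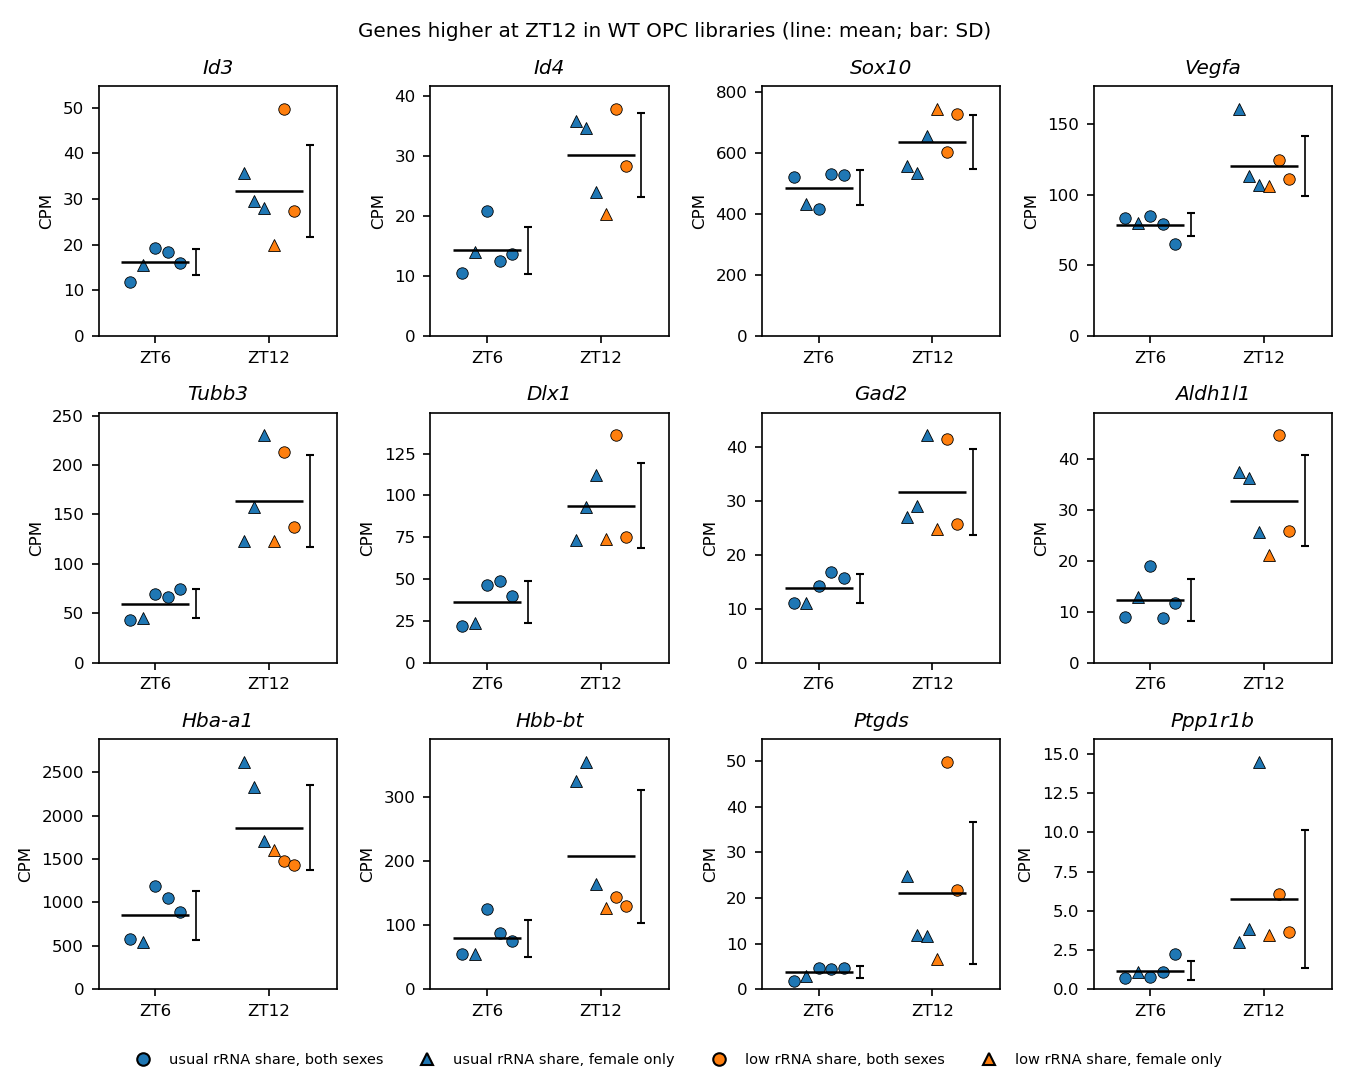
CPM (y axis, from 0) of 12 genes that rose, in each WT library at ZT6 (5 libraries) and ZT12 (6), with the mean as a line and the SD as a bar; colour marks the ribosomal RNA share and shape the sex of the RNA. Every ZT12 point lies above every ZT6 point except for Id4, and 1 low-rRNA library, ZT12 replicate 5, is the highest for Ptgds at 49.8 CPM.

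The same interval in the KO libraries was set beside these values. At ZT6, KO replicates 1, 5 and 6 held RNA of males only and replicate 7 was low-rRNA, while no KO library at ZT12 was of either kind. These properties were thus spread over the times differently in WT and KO. What they contribute to a difference between the genotypes cannot be told apart fully. Arntl, the targeted gene, was read at 17.9 to 23.3 CPM in KO at ZT6 and 20.9 to 23.3 CPM at ZT12, close to the WT values above; a count over the whole gene does not isolate the deleted part and so does not check the deletion. In KO 500 genes rose (2.19%) and 1100 fell (4.82%). Of the genes that rose, 66 were common to both genotypes, 13.5% of the WT list and 13.2% of the KO list, and of those that fell, 218 were common, 38.3% of the WT list and 19.8% of the KO list. The clock repressors gave KO changes of -2.03 for Ciart, -1.4 for Per1, -1.25 for Nr1d1 and -1.36 for Bhlhe41, and the stress genes -4.51 for Hspb1, -2.43 for Bag3, -0.85 for Hspa5 and -1.64 for Rel, all 8 called (edgeR adjusted p 0.000169 to 0.00227). The KO libraries at ZT6 were uneven. Ciart ran from 8.72 to 88.5 CPM there, against 7.61 to 21.8 CPM in KO at ZT12, and Hspb1 from 3.62 to 184 CPM, against 0.875 to 3.87 CPM. Except for Bag3, the KO values of these 8 genes overlapped between the times. In none of these 8 genes did the WT change differ from the KO change at an adjusted p under 0.05 (edgeR adjusted p 0.278 to 0.97).

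The difference between the genotypes was itself called for 715 genes (3.14%), with the WT change the more positive for 500 (2.19%) and the more negative for 215 (0.943%). The clock genes Clock and Dbp were among them. Clock had 67.5 to 113 CPM at ZT6 and 81.0 to 118 CPM at ZT12 in KO, a change of 0.18 against -0.44 in WT, a difference of -0.61 (SE 0.16, edgeR adjusted p 0.033). Dbp had 10.4 to 21.4 CPM and 6.83 to 12.2 CPM in KO, a change of -0.89 against -0.12 in WT, a difference of 0.77 (SE 0.22, edgeR adjusted p 0.045). The smallest p-values of the difference were those of Gpr137, a lysosomal membrane protein gene, Syngr1, a synaptic vesicle protein gene, Rrp9, a factor of ribosomal RNA processing, Mark4, a kinase of microtubule-associated proteins, and Dexi. Gpr137 (chr19:6938069-6942450) rose in WT from 28.0, 30.2, 29.0, 29.3 and 32.2 CPM to 32.2 to 42.2 CPM (0.33, edgeR adjusted p 0.0167) and fell in KO (-0.50), a difference of 0.83 (SE 0.12, edgeR adjusted p 0.0012). The WT call of Gpr137 was lost without ZT6 replicate 1, with no filter on low counts, without the low-rRNA libraries (0.22, edgeR adjusted p 0.409), with a low-rRNA term and without the single-sex libraries (0.41, 0.0808). The other 4 showed the same pair of directions, with WT changes of 0.22 to 0.40, of which that of Dexi was called (and lost without ZT6 replicate 1, 2, 3 or 5, ZT12 replicate 5, and on removing either kind of library that stands apart), and KO changes of -0.45 to -0.59. The count depended on the libraries kept. Leaving out the low-rRNA libraries, KO ZT6 replicate 7 among them, no gene was called (edgeR, 1982 genes at an unadjusted p under 0.05). Leaving out the single-sex libraries, KO ZT6 replicates 1, 5 and 6 among them, 995 were. For single libraries, the number changed from 715 to 96 and 168 without KO ZT12 replicates 1 and 3, and to 1285, 432 and 308 without replicates 1, 5 and 7 of KO at ZT6. Leaving out WT ZT6 replicates 1, 2 and 3 gave 322, 470 and 270, and leaving out WT ZT12 replicates 4, 5 and 6 gave 316, 345 and 325.

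**Figure D5:**
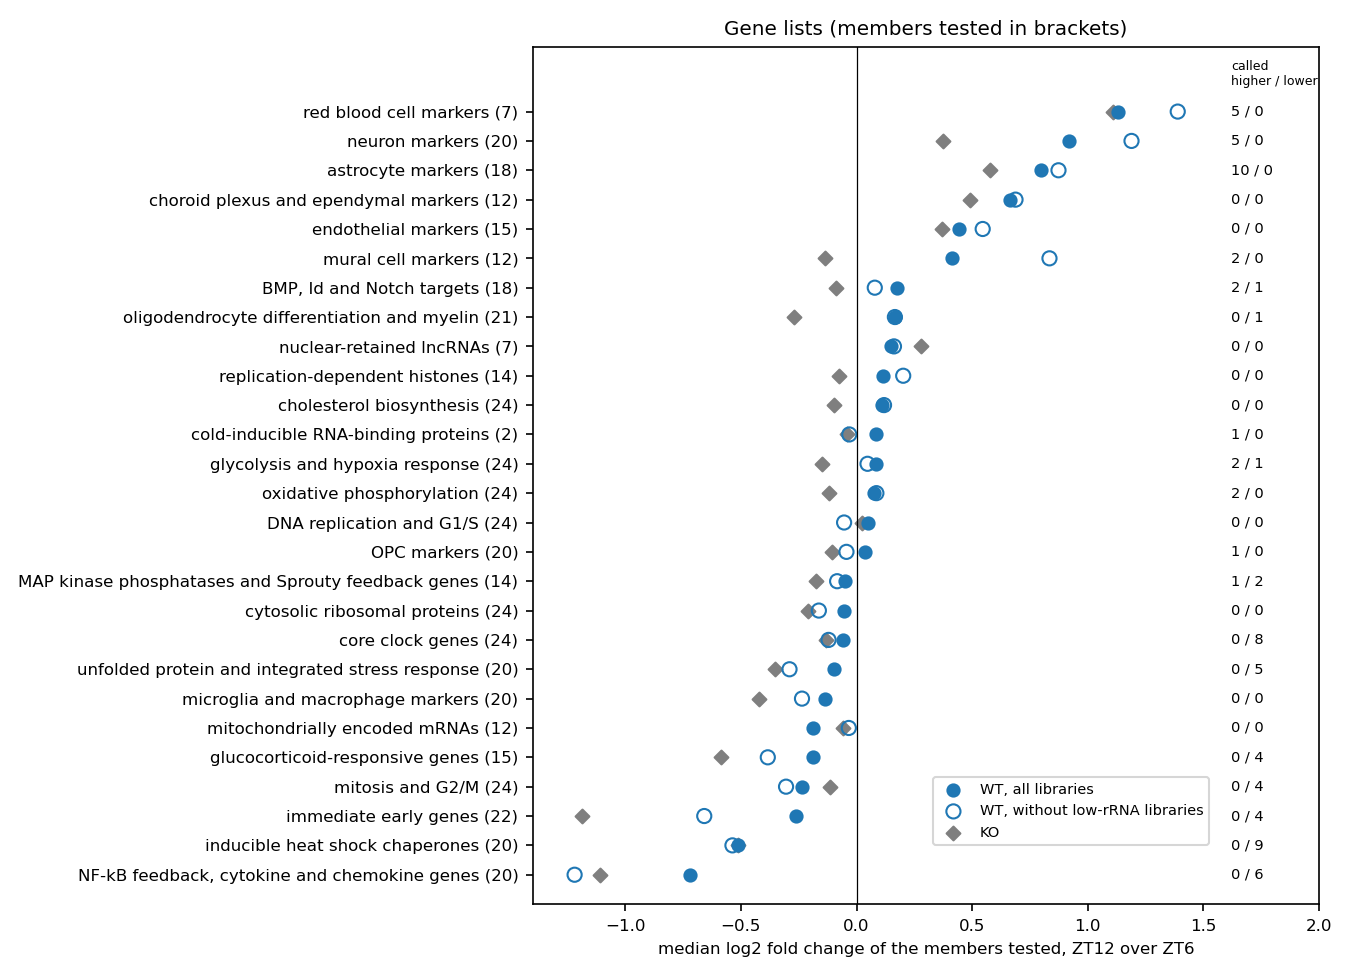
Median log2 fold change (x axis, ZT12 over ZT6) of the tested members of 27 of the 29 gene lists, in WT with all libraries, in WT without the low-rRNA libraries and in KO, with the numbers called higher and lower in WT at the right. Red blood cell, neuron and astrocyte markers stand at the top, at 1.13, 0.919 and 0.797, and the heat shock and NF-kB lists at the bottom, at -0.511 and -0.719.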

How the data were processed

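RNA was read from immunopanned OPCs by poly-A selected RNA-seq. The authors deposited 1 table of counts per gene for all 38 libraries, made from reads trimmed with fastp, aligned to GRCm38/mm10 with HISAT2 2.0.5 and counted with featureCounts 1.5.0-p3, per the submitters' processing notes. The sources used here give neither strand setting nor annotation release, and reads of overlapping, antisense and near-identical genes may be mixed.

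The counts were fitted in R 4.3.3 with edgeR 4.0.16 (TMM scaling, edgeR's expression filter, quasi-likelihood test) with 8 groups of genotype and time over all 38 libraries, which share 1 estimate of the spread, with Benjamini-Hochberg adjustment across all 22798 genes that passed the filter. CPM values use the TMM-scaled library size. Low-rRNA libraries had under 0.3% of counts in ribosomal RNA genes; single-sex libraries had a Y-linked sum or Xist under 0.1 of the median. Promoters came from RefSeq on GRCm38.p6. Alternatives used DESeq2 1.42.0, limma 3.58.1 (voom), other scalings, filters, terms and left-out libraries. The fit was tested on simulated data.

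Groups came from sample titles. Nothing in the labels ties a library to a separate litter or day, so p-values measure only the spread between these pooled samples. No 2 libraries of a group agreed within sampling noise (smallest chi-square per degree of freedom 11.1 over 25 pairs). Named genes were the core clock list, the 10 largest called changes in each direction with a mean log2 CPM above 1, the 10 smallest p-values, the 3 smallest p-values of each list and the 5 smallest of the difference between genotypes, without unnamed models, pseudogenes and sex-linked genes; other called list members were named after their values were seen. The members and lists were chosen with earlier results of these data known, and some lists share genes (Per1, Errfi1, Hspa5, Aldoc, Hes5 and Nfkbia each stand in more than 1). A few genes that this rule names are not reported here.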

Additional observations from a re-analysis of the deposited data

Results flagged for a closer look

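Some libraries stood far from the other 4 of their group at ZT6. Bag3 was at 127 CPM in replicate 5, against 62.8 to 68.7 CPM in the others. Errfi1 was at 32.8 CPM in replicate 1, against 42.7 to 44.2 CPM. Vegfa was at 65.1 CPM in replicate 5, against 79.5 to 85.3 CPM. Ndufa1 was at 7.58 CPM in replicate 3, against 10.5 to 11.1 CPM. Pdgfrb was at 26.9 CPM in replicate 3, against 12.7 to 14.5 CPM. Dexi was at 21.1 CPM in replicate 4, against 16.9 to 18 CPM. These are 6 of 172 combinations of a gene and a group that were looked at, and chance gives about 1 in 20.

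For some named genes the change from ZT6 to ZT12 differed between WT and KO in the test of the difference itself (edgeR, adjusted p under 0.05). The log2 change in WT minus that in KO was -0.613 for Clock, -0.636 for Fnip1 and -0.536 for Cip2a, which fell in WT and had KO changes of 0.18, -0.17 and 0.04. It was 0.768 for Dbp, 0.584 for Sox10, 0.68 for Olig2, 0.715 for Ndufb3 and 0.773 for Ndufa1. It was 0.83 for Gpr137, 0.675 for Syngr1, 0.895 for Rrp9, 0.766 for Mark4 and 0.93 for Dexi. Without the low-rRNA libraries none of these 13 differences passed.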

How the results depend on the processing

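The alternatives were followed for most genes given with values above. Other genes that the naming rule picks were left out, among them Rorb, Cry2, Tef and Hlf. Of the changes followed under all alternatives, 1800 kept their direction and side of the threshold, 25 passed newly, 325 no longer passed and 0 changed sign. The absence of sign changes holds for the genes followed alone. The counts of calls moved more, and the cause was not tested except that fewer libraries entered some fits. Genes that rose (489) numbered 800 with library size alone as the scaling, 755 with DESeq2, 808 with only the 11 libraries compared, 154 without the low-rRNA libraries, 150 with a low-rRNA term, 91 without the single-sex libraries and 43 with low-rRNA and single-sex terms, the last chosen after seeing the data. Genes that fell (569) numbered 893 with only the 11 libraries, 321 without the low-rRNA libraries, 215 with the low-rRNA term, 55 without the single-sex libraries and 39 with both terms. The difference between genotypes (715) numbered 455 with no filter on low counts, 1254 with DESeq2, 210 with only the 22 libraries of the 4 groups, 1234 with a microglia marker term, 995 without the single-sex libraries, 1338 with single-sex terms (chosen after seeing the data) and 6 with the low-rRNA term. It was 0 without the low-rRNA libraries (1982 genes at an unadjusted p under 0.05) and 0 with both terms (2654), both by edgeR. Leaving out 1 library gave 167 to 484 genes that rose, 247 to 533 that fell and 96 to 1285 differences. With the replicate block on the 11 libraries 561 rose and 584 fell. The labels do not say that replicate numbers pair the samples. Deviations of same-numbered libraries correlated at -0.00717 to 0.191, and 1 of 5 correlated best with its own number. So few values cannot decide whether samples were paired. The number of libraries, 5 against 6, limits the precision.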
